A study of Mus musculus with 8 samples.

Results

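Transcripts of endoplasmic reticulum chaperones and of the unfolded protein response were compared between Atgl KO/cTg and wt/cTg club cells, which line the airways and secrete their protective fluid. The set holds 32 genes in 5 roles: 14 folding chaperones and helpers, 7 genes of ER-associated degradation, 4 genes that comprise the stress sensors and Xbp1, 5 genes made up of Atf4 and its targets, and 2 genes of the protein entry channel. Members were found by symbol among probe sets annotated to exactly 1 gene, and where a gene had several, its brightest by mean over the 8 arrays was used. This gave 31 of the 22180 genes with such a probe set. Pdia4, a disulfide isomerase, shares its probe set with a microRNA gene in the annotation and has no value here. All 31 lay above the level filter, a mean log2 signal of 5.18, the median over all probe sets, and so were among the 13112 genes tested.

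The Atgl KO/cTg group had 4 arrays, each of RNA pooled from 4 mice lacking Atgl and carrying cTg, 38 to 46 weeks old. The wt/cTg group had 4 arrays, each pooled from 3 or 4 mice with Atgl and cTg, 41 to 48 weeks old. Both groups therefore carry cTg, which the labels do not expand, and they name neither its promoter nor the tissues in which Atgl was deleted. No treatment was given, and the animals were fed standard chow. Replicates are pools of mice, and the p-values measure only the spread between them.

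Pnpla2, the current name of Atgl, read 6.99, 7.16, 7.09 and 6.70 on the log2 scale in Atgl KO/cTg pools, against 8.70, 8.63, 8.62 and 8.86 in wt/cTg pools, a difference of -1.72 (SE 0.11, limma adjusted p = 0.000116). All 15 club cell markers examined were above the level filter, and so were all 15 markers of alveolar type 2 cells, the surfactant makers. In bulk samples such as these, fewer cells of a type and less RNA per cell cannot be told apart. All 15 type 2 markers had lower means in Atgl KO/cTg, and Hc, Etv5, Lamp3, Sftpc and Slc34a2 passed the limma threshold. With replicate 1 of Atgl KO/cTg left out, or either replicate 2 or 4 of wt/cTg, Pnpla2 was the 1 gene called and none of these 5 passed. Their highest limma adjusted p with a pool left out was 0.211 to 0.226. The mean log2 signal of that list was 9.99 to 10.25 in Atgl KO/cTg pools and 10.43 to 10.89 in wt/cTg pools. At an unadjusted limma p under 0.05, a level that 7.95% of all genes tested reached, 5 of 15 club cell markers were higher and none lower, and 13 of 15 type 2 markers were lower. Of 13 neutrophil markers 10 lay above the level filter, and of these 4 were higher and 1 lower at the same level. There 4 of 14 fibroblast and smooth muscle markers were lower, and of 14 endothelial markers 1 was higher and 2 lower. The part of these cells in the members' values was not tested. All marker lists were chosen with earlier results of these data known, so their counts are no test against the share of all genes. Along the first principal component the end points were replicate 2 of Atgl KO/cTg and, opposite, replicate 4 of wt/cTg. The second of these pools also had a score of sex-linked transcripts (Xist minus Y-linked genes) of -3.24, against 3.15 to 5.23 in the other 7 pools.

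Proteins bound for secretion enter the ER through the Sec61 channel and are folded by chaperones such as BiP, the product of Hspa5. When unfolded protein builds up, the sensors ATF6, IRE1 (Ern1) and PERK (Eif2ak3) are released from BiP. ATF6 and the XBP1 protein made after IRE1 splices its message raise chaperone and degradation genes, while PERK slows translation and favours ATF4, which raises amino acid and stress genes. Club cells are secretory cells, and their secreted proteins pass through the ER.

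Promoter matches are shown for elements through which these arms are known to act, since they mark some of the chaperone, degradation and ATF4 target genes. Windows of 300 bases, 250 before to 50 after each start site, were taken from RefSeq (GRCm38.p6) and matched 28 of the 32 members. Hyou1, Manf, Derl1 and Atf6 had none. Both strands were searched for the ER stress element, ERSE, which is CCAAT and CCACG with 9 bases of any kind (N) between them, bound by ATF6 together with the CCAAT factor NF-Y. It stood in 9 of 28 members (32.1%) against 0.137% of 27025 genes with a window. By role it was found in 7 of 12 folding members and 2 of 6 degradation members, and in none of the 3 sensor, 5 ATF4 or 2 channel members with a window. These genes are textbook examples of ER stress targets, so the share describes how the set was put together. The matches below have the fixed letters of ERSE in capitals, with 5 flanking bases on each side.

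Hspa5, chr2:34772020-34772048, plus strand: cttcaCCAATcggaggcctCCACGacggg

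Hsp90b1, chr10:86705633-86705661, minus strand: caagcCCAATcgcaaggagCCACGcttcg

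Calr, chr8:84847070-84847098, plus strand: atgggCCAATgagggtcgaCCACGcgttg

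Pdia6, chr12:17266486-17266514, plus strand: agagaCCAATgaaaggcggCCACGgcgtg

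Creld2, chr15:88819515-88819543, minus strand: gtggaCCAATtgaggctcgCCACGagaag

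Derl3, chr10:75893237-75893265, minus strand: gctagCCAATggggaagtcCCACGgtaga

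The centre of the Hspa5 match lay 56 bases before the start site and that of Derl3 146 bases before it. Canx, Dnajc3 and Syvn1 held 1 match each, and Hsp90b1 held a second one 98 bases before its start site. The compact form, ERSE-II, which is ATTGG and CCACG with 1 base of any kind between them, was found in Dnajb11 and Herpud1, which is 7.14% of members against 0.0444% of all genes. A further element, UPRE, spelled TGACGTGG, was in 0 of 28 members and in 0.714% of all genes. The ATF4 element, CARE, spelled TGATGNAA, was in Asns, Chac1, Trib3 and Herpud1, 14.3% of members against 4.51% of all genes. Its fixed letters are in capitals here for the ATF4 targets, and for Herpud1, where ERSE-II and CARE lie in 1 window without overlapping.

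Asns CARE, chr6:7693220-7693237, minus strand: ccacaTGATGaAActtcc

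Chac1 CARE, chr2:119351044-119351061, minus strand: aggagTGATGcAAcggca

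Trib3 CARE, chr2:152344034-152344051, plus strand: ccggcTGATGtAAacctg

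Herpud1 CARE, chr8:94386312-94386329, minus strand: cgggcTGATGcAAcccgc

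Herpud1 ERSE-II, chr8:94386372-94386392, plus strand: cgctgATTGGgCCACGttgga

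None of the 31 members passed the limma threshold of an adjusted p under 0.05, which 0.0991% of all genes tested did. Adjusted p-values of the members ran from 0.597 to 0.983. At an unadjusted p under 0.05 there were 2 members, Atf4 and Ssr1, both lower in Atgl KO/cTg. That is 6.45% of the members, against 7.95% of all genes tested, and 4.56% of all genes were lower at that level. Of the 31 differences 15 lay above 0 and 16 below, with a median of -0.02 on the log2 scale, and over all genes tested the median was -0.01. The difference was smaller than the within-genotype SD for 24 of 31 members (77.4%) and for 74.7% of all genes tested. Sec61b was the only member whose groups did not overlap, and over all genes 4.35% did not.

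**Figure D1:**
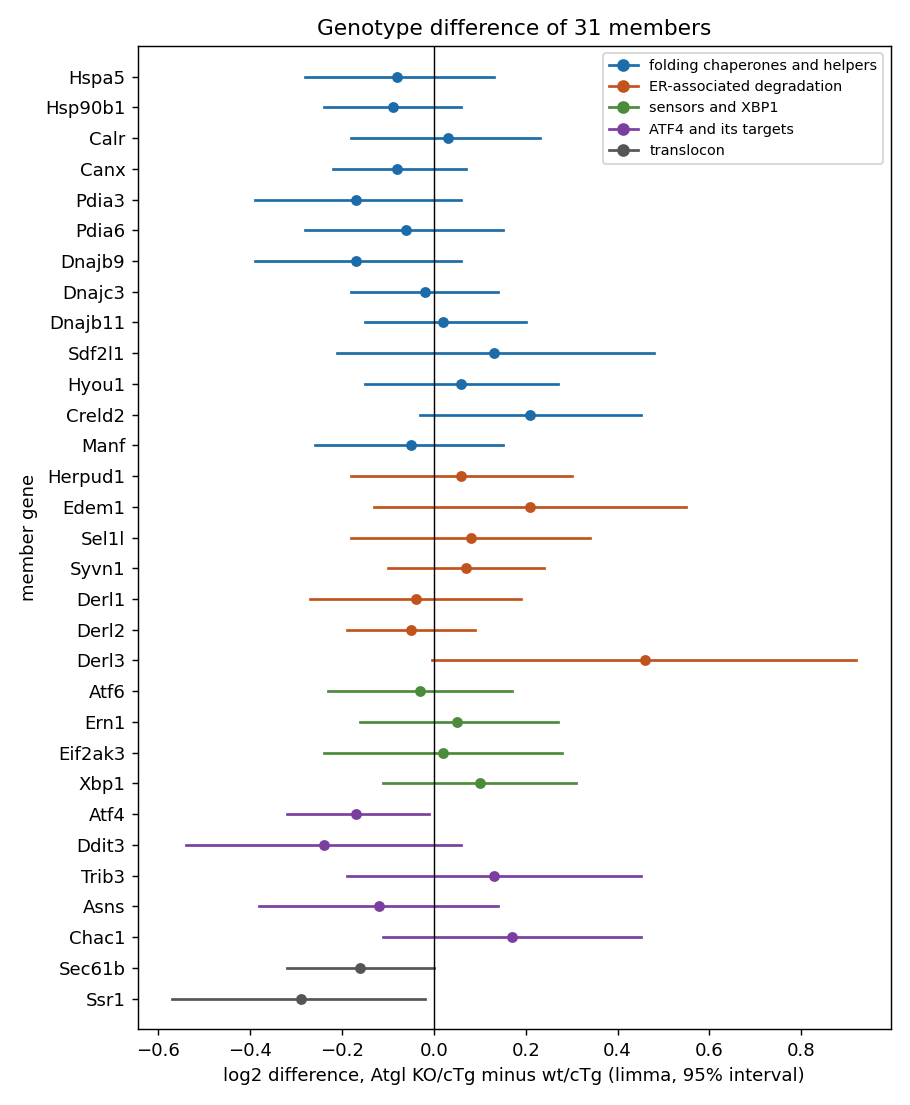
Log2 differences of the 31 members, Atgl KO/cTg minus wt/cTg (horizontal axis), with limma 95% intervals as lines and 1 row per gene, coloured by role. Only the intervals of Atf4 and Ssr1 leave out 0, on the lower side, and the widest reaches 0.92 for Derl3.

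The intervals give the range of differences that the 8 pools leave for each gene. The 95% intervals of limma, taken gene by gene and not widened for the number of genes, lay for all 13 folding members within 0.761 to 1.39 times the wt/cTg level. For the sensors and Xbp1 they lay within 0.849 to 1.24 times, for degradation genes within 0.831 to 1.89 times and for Atf4 and its targets within 0.685 to 1.37 times. For the 2 channel genes they lay within 0.674 to 1.0 times.

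Among the folding members, the general chaperones showed no difference that passed. Hspa5, the Hsp70 of the ER, read 9.79, 9.71, 9.89 and 9.81 in Atgl KO/cTg pools, against 9.90, 9.71, 9.77 and 10.13 in wt/cTg pools. Its highest value was in wt/cTg replicate 4, the groups overlapped, and the difference was -0.08 (SE 0.09, 95% interval -0.28 to 0.13, limma adjusted p = 0.884). It was 0.01 without that pool. Hsp90b1, the Hsp90 of the ER (GRP94), read 11.76, 11.54, 11.79 and 11.78 in Atgl KO/cTg pools, against 11.86, 11.77, 11.84 and 11.74 in wt/cTg pools. The lowest of the 8 was Atgl KO/cTg replicate 2. The Hsp90b1 difference was -0.09 (SE 0.07, limma adjusted p = 0.797), -0.03 without that pool and -0.11 without Atgl KO/cTg replicate 3.

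Calreticulin (Calr) and calnexin (Canx) hold newly made glycoproteins while they fold, and Pdia3 forms their disulfide bonds in the same cycle. Calr averaged 10.94 ± 0.05 in Atgl KO/cTg pools and 10.91 ± 0.21 in wt/cTg pools (SD, n = 4 each). Without wt/cTg replicate 1, the highest pool at 11.22, its difference was 0.13 in place of 0.03. Canx averaged 10.74 ± 0.08 in Atgl KO/cTg pools and 10.82 ± 0.09 in wt/cTg pools (SD, n = 4 each). Pdia3 read 10.59, 10.22, 10.59 and 10.67 in Atgl KO/cTg pools, against 10.83, 10.53, 10.69 and 10.69 in wt/cTg pools. Atgl KO/cTg replicate 2 was low, and the difference of -0.17 (limma adjusted p = 0.739) was -0.07 without it. Without wt/cTg replicate 2 the Pdia3 difference was -0.22. Pdia6, a further disulfide isomerase, averaged 9.54 ± 0.03 in Atgl KO/cTg pools and 9.60 ± 0.21 in wt/cTg pools (SD, n = 4 each).

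The J-domain proteins recruit BiP to its clients, and none passed the threshold. Dnajb9, which returns IRE1 to rest through BiP, read 9.82, 9.41, 9.87 and 9.87 in Atgl KO/cTg pools, against 9.98, 9.95, 9.91 and 9.80 in wt/cTg pools. Here too Atgl KO/cTg replicate 2 alone was low. The Dnajb9 difference was -0.17 (limma adjusted p = 0.743), -0.06 without that pool and -0.21 without Atgl KO/cTg replicate 3. Dnajc3, an inhibitor of PERK and a co-chaperone, was at -0.02 and Dnajb11 at 0.02. Hyou1, which exchanges the nucleotide of BiP, was at 0.06 (8.58 ± 0.04 in Atgl KO/cTg pools, 8.52 ± 0.18 in wt/cTg pools, SD, n = 4 each).

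The small, strongly inducible helpers lay on both sides of 0, and none passed the threshold. Creld2, an ER stress-induced isomerase, read 8.62, 8.89, 8.90 and 8.72 in Atgl KO/cTg pools, against 8.71, 8.57, 8.70 and 8.29 in wt/cTg pools. The groups overlapped, and the difference was 0.21 (SE 0.11, 95% interval -0.03 to 0.45, limma adjusted p = 0.66). It was 0.12 without wt/cTg replicate 4, the lowest pool, and 0.27 without Atgl KO/cTg replicate 1. Sdf2l1, a partner of Dnajb11, read 8.94, 8.93, 8.81 and 8.55 in Atgl KO/cTg pools, against 9.13, 8.57, 8.68 and 8.32 in wt/cTg pools. Its difference of 0.13 was 0.02 without wt/cTg replicate 4, the lowest pool, and 0.29 without wt/cTg replicate 1, the highest. Manf, a secreted survival factor kept in the ER, averaged 7.16 ± 0.11 in Atgl KO/cTg pools and 7.22 ± 0.05 in wt/cTg pools (SD, n = 4 each).

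**Figure D2:**
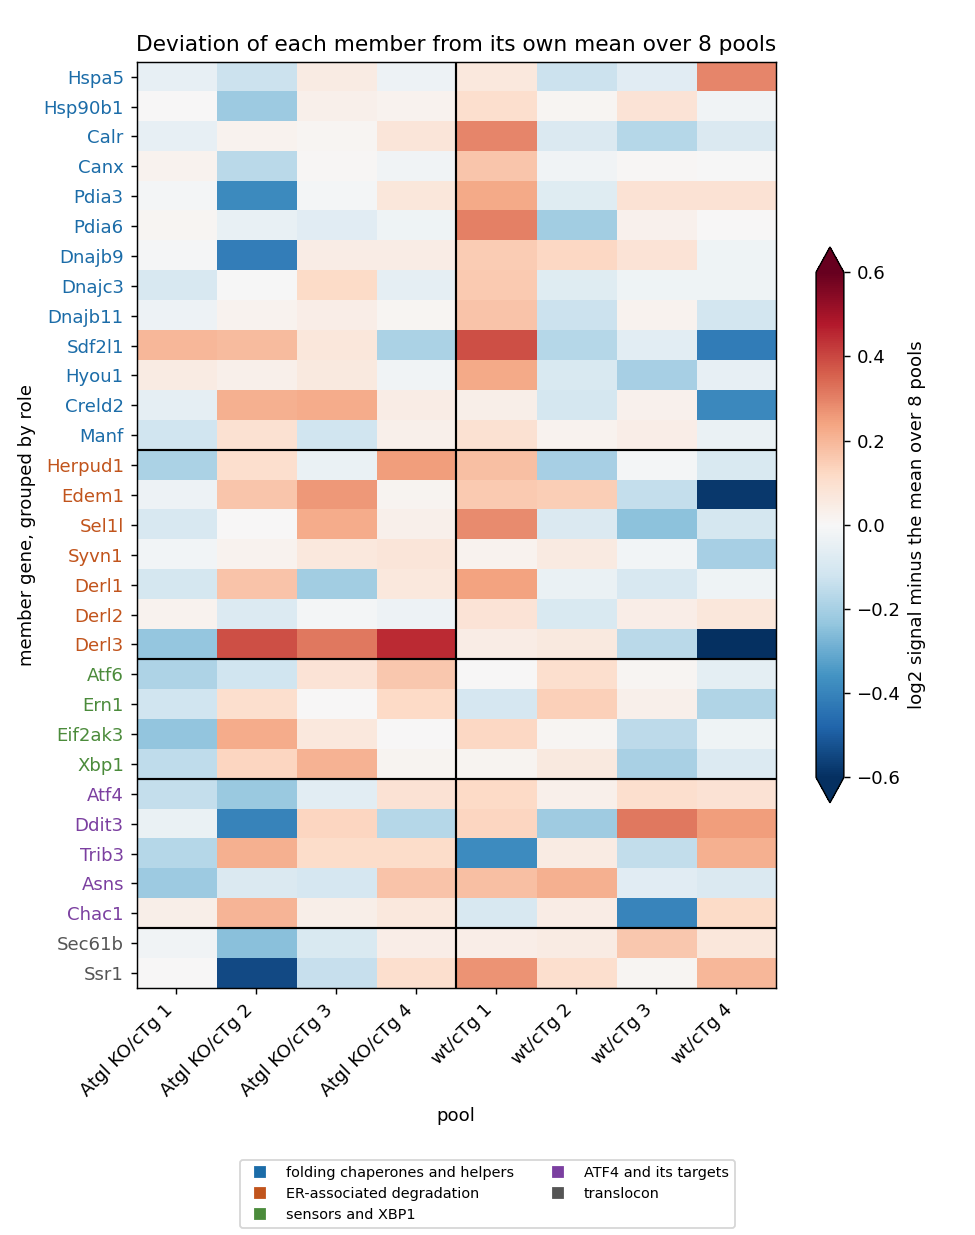
Log2 signal of each of the 31 members minus its own mean over the 8 pools (red above, blue below), with the Atgl KO/cTg pools on the left, wt/cTg pools on the right and genes grouped by role. The column of wt/cTg replicate 1 is red for most folding members, and Atgl KO/cTg replicate 2 is blue for Hsp90b1, Pdia3, Dnajb9, Ddit3, Sec61b and Ssr1.

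Among the folding members, single pools stood apart within their genotype. In wt/cTg replicate 1, 10 of 13 folding members had their highest value of all 8 pools (76.9%), and all 13 lay above the wt/cTg mean. Over all genes tested, 20.5% were highest in that pool. The mean log2 signal of the 13 members was 9.70 to 9.79 in Atgl KO/cTg pools, against 9.94 in replicate 1 and 9.68 to 9.75 in the other 3 of wt/cTg. The mean over all genes was also highest there, at 7.35, against 7.21 to 7.33 elsewhere. Taken relative to that mean, the folding members stood at 2.59 in that pool, and the other 7 pools ranged over 2.38 to 2.53. A wider list of folding enzymes that shares no gene with the members was highest in the same pool, at 8.54 against 8.31 to 8.46. That was not particular to folding genes, since wider lists of degradation (8.65), sensor (7.84) and channel genes (9.47) were also highest there. The wider ATF4 list was not, at 7.76 against 7.79 in Atgl KO/cTg replicate 2. Taken relative to the mean over all genes, the wider folding and channel lists stayed highest in wt/cTg replicate 1. The wider degradation and sensor lists did not. Without wt/cTg replicate 1 the median difference of the folding members was 0.03 in place of -0.05. In the other direction, Atgl KO/cTg replicate 2 held the lowest value of 8 of the 31 members (25.8%), where 16.3% of all genes had theirs.

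**Figure D3:**
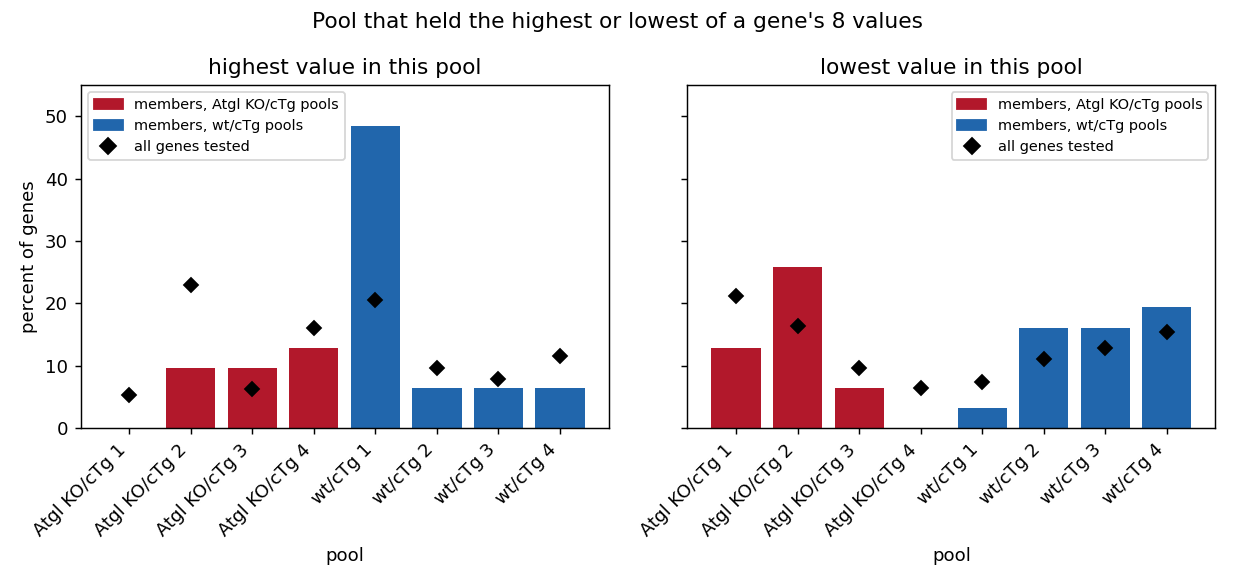
Percent of genes (vertical axis) whose highest value (left panel) or lowest value (right panel) of the 8 fell in each pool, as bars for the 31 members and diamonds for all 13112 genes tested. wt/cTg replicate 1 holds the highest value of 48.4% of members against 20.5% of all genes.

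In ER-associated degradation, which pulls misfolded proteins out of the ER for the proteasome, 5 of 7 members lay above 0 and none passed, with a median of 0.07 that ran from 0.04 without wt/cTg replicate 4 to 0.13 without wt/cTg replicate 1. Derl3, a derlin of the exit channel that is high in plasma cells, had the largest difference of any member. It read 7.16, 7.78, 7.71 and 7.84 in Atgl KO/cTg pools, against 7.44, 7.45, 7.23 and 6.54 in wt/cTg pools. In Atgl KO/cTg pools 3 of 4 values lay above every wt/cTg value, while replicate 1 lay among them, and wt/cTg replicate 4 was the lowest of all. The Derl3 difference was 0.46 (SE 0.21, limma unadjusted p = 0.052, adjusted p = 0.63). Without wt/cTg replicate 4 it was 0.25, and without Atgl KO/cTg replicate 1 it was 0.61. Its relatives Derl1 and Derl2 were at -0.04 and -0.05, and a second, dimmer Derl2 probe set gave -0.12.

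Of the markers of plasma and B cells, 11 of 14 had a value, 8 of these lay above 0 and 3 below, and 1 had an unadjusted limma p under 0.05. The mean of that list was 9.02 to 9.17 in Atgl KO/cTg pools. In wt/cTg pools it was 9.17, 8.99 and 8.96 in replicates 1 to 3 and 8.40 in replicate 4, the pool in which Derl3 was lowest. No defining marker with a value was left out by the level filter. The part of these cells in the Derl3 difference was not tested.

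Edem1, which trims the sugar chains of doomed glycoproteins, read 8.24, 8.44, 8.53 and 8.29 in Atgl KO/cTg pools, against 8.43, 8.42, 8.13 and 7.69 in wt/cTg pools. The same wt/cTg replicate 4 was low, and the difference of 0.21 (limma adjusted p = 0.789) was 0.05 without it. Without wt/cTg replicate 1 the Edem1 difference was 0.30. A second Edem1 probe set gave 0.08. Herpud1, a membrane scaffold induced by ER stress, read 9.43, 9.72, 9.58 and 9.87 in Atgl KO/cTg pools, against 9.80, 9.42, 9.61 and 9.53 in wt/cTg pools, fully mixed between genotypes. Syvn1, the ubiquitin ligase HRD1, was at 0.07 and Sel1l, its partner, at 0.08, with limma adjusted p of 0.876 and 0.911.

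The sensors and Xbp1 had the smallest differences of the 5 roles, with a median size of 0.04. Ern1, the kinase and RNase IRE1, averaged 7.94 ± 0.11 in Atgl KO/cTg pools and 7.88 ± 0.14 in wt/cTg pools (SD, n = 4 each). Eif2ak3, the kinase PERK, averaged 6.82 ± 0.19 in Atgl KO/cTg pools and 6.80 ± 0.12 in wt/cTg pools (SD, n = 4 each). Atf6, which is cut in the Golgi to free its transcription factor part, was at -0.03 (95% interval -0.23 to 0.17). Xbp1 read 8.98, 9.26, 9.34 and 9.15 in Atgl KO/cTg pools, against 9.15, 9.19, 8.94 and 9.05 in wt/cTg pools. The Xbp1 groups overlapped, with a difference of 0.10 (limma adjusted p = 0.837). The probe set gives a single value for Xbp1 and does not separate its spliced from its unspliced form, and sensor activity is set by protein changes that an array does not read.

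Atf4 and its targets did not move as a block. Atf4, the transcription factor made when PERK or a related kinase is active, read 10.85, 10.77, 10.93 and 11.08 in Atgl KO/cTg pools, against 11.11, 11.02, 11.09 and 11.08 in wt/cTg pools. In Atgl KO/cTg 3 of 4 pools lay below every wt/cTg pool and replicate 4 lay among them. The Atf4 difference was -0.17 (SE 0.07, 95% interval -0.32 to -0.01), with a limma unadjusted p of 0.0394 and an adjusted p of 0.6. Without Atgl KO/cTg replicate 2, the lowest pool, it was -0.12 with an unadjusted limma p of 0.095. Without Atgl KO/cTg replicate 4 it was -0.23 (limma unadjusted p = 0.00631, adjusted p = 0.341). Ddit3, the stress factor CHOP, read 8.05, 7.69, 8.22 and 7.92 in Atgl KO/cTg pools, against 8.22, 7.88, 8.41 and 8.34 in wt/cTg pools, and its groups overlapped. Its difference was -0.24 (SE 0.14, limma adjusted p = 0.712), and -0.15 without Atgl KO/cTg replicate 2.

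The enzymes and regulators downstream of ATF4 were split. Asns, asparagine synthetase, averaged 7.17 ± 0.16 in Atgl KO/cTg pools and 7.29 ± 0.16 in wt/cTg pools (SD, n = 4 each). Trib3, a pseudokinase that feeds back on ATF4, read 5.26, 5.64, 5.54 and 5.54 in Atgl KO/cTg pools, against 5.05, 5.48, 5.28 and 5.64 in wt/cTg pools, close to the level filter. Chac1, which breaks down glutathione, read 5.95, 6.12, 5.95 and 5.98 in Atgl KO/cTg pools, against 5.82, 5.96, 5.52 and 6.03 in wt/cTg pools. The groups overlapped for each of these genes. Of the 5 genes 2 lay above 0 and 3 below (median -0.12). The 4 members with a CARE match had a median of 0.09, and the 11 with a value and ERSE or ERSE-II a median of 0.02.

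**Figure D4:**
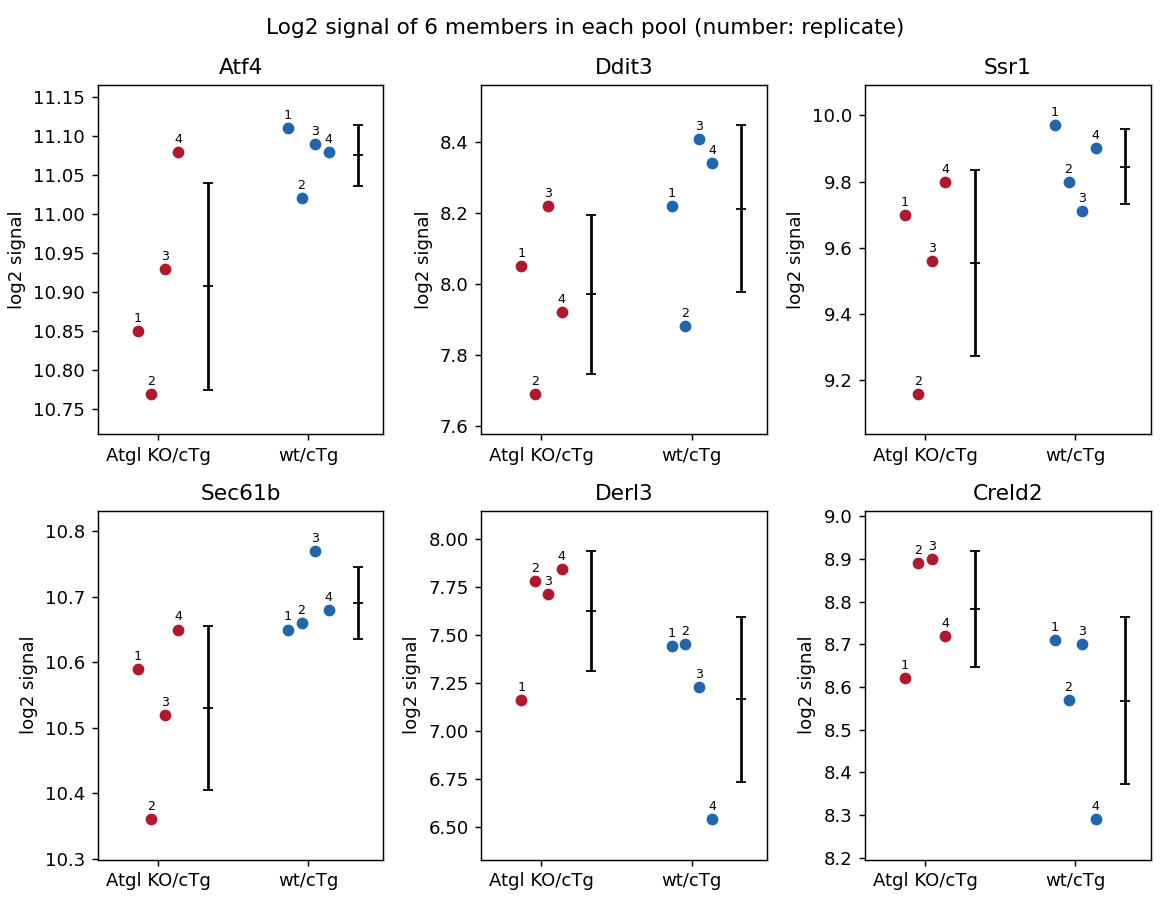
Log2 signal (vertical axis, cut to the range of each gene) of 6 members in each pool, Atgl KO/cTg left and wt/cTg right, with the replicate number at each point and the mean ± SD (n = 4) beside them. Atgl KO/cTg replicate 2 is the lowest point for Atf4, Ddit3, Ssr1 and Sec61b, and wt/cTg replicate 4 for Derl3 and Creld2.

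Both genes of the entry channel lay below 0 in Atgl KO/cTg, and neither passed over all genes. Ssr1, the alpha subunit of the translocon-associated protein complex, read 9.70, 9.16, 9.56 and 9.80 in Atgl KO/cTg pools, against 9.97, 9.80, 9.71 and 9.90 in wt/cTg pools. Its difference was -0.29 (SE 0.13, 95% interval -0.57 to -0.02), with a limma unadjusted p of 0.038 and an adjusted p of 0.597. Without Atgl KO/cTg replicate 2, the lowest pool, it was -0.16, and without Atgl KO/cTg replicate 4 it was -0.38. A second Ssr1 probe set read 8.55, 8.66, 8.66 and 8.62 in Atgl KO/cTg pools, against 8.97, 8.67, 8.44 and 8.54 in wt/cTg pools. Its difference was -0.03, just inside the upper end of the 95% interval of the first. On this second probe set Atgl KO/cTg replicate 2, at 8.66, was not the lowest pool.

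Sec61b, the beta subunit of the channel itself, read 10.59, 10.36, 10.52 and 10.65 in Atgl KO/cTg pools, against 10.65, 10.66, 10.77 and 10.68 in wt/cTg pools. The groups were separated by a narrow margin, the highest Atgl KO/cTg value being 10.65 and the lowest wt/cTg value 10.655. A lower gene without overlap was found for 2.62% of all genes tested. The Sec61b difference was -0.16 (SE 0.07, limma adjusted p = 0.63). It was -0.10 without Atgl KO/cTg replicate 2 and -0.20 without Atgl KO/cTg replicate 4. A second probe set of Sec61b, averaging 5.77 ± 0.15 in Atgl KO/cTg pools and 5.68 ± 0.23 in wt/cTg pools (SD, n = 4 each), lay at 0.10. On it Atgl KO/cTg replicate 2 was the highest of the 8 pools, at 5.98, while it was the lowest on the first. Atgl KO/cTg replicate 2 also had the highest mean of goblet cell markers, at 9.24, against 8.31 to 8.54 in the other Atgl KO/cTg pools and 7.40 to 8.40 in wt/cTg pools. Of the 14 genes with a value on that list, 12 lay above the level filter and were tested. All 12 lay above 0, with a median of 0.55, and none passed over all genes. At an unadjusted limma p under 0.05, which 7.95% of all genes reached, 7 (58.3%) were higher. This list too was chosen with earlier results of these data known. The part of goblet cells in the low Ssr1 and Sec61b values of that pool on the first probe sets was not tested.

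Further genes of the same pathways, taken from lists fixed by role, were examined in the same fit. Of 141 tested genes on 5 wider lists 0 passed over all genes, where 0.0991% of all genes tested did. At an unadjusted limma p under 0.05 there were 5 (3.55%), 4 higher and 1 lower, against 7.95% of all genes tested. The ATF4 list held 4 of these, 3 higher and 1 lower (10.8% of its 37 tested genes), and the sensor list 1. Folding enzymes (33 tested) had a median of 0.01 and ran from -0.34 to 0.45. Rcn1 (-0.34) and Txndc11 (0.22) had the smallest limma p-values among them, and the list also holds the goblet marker Agr2. Degradation genes (24 tested) also had a median of 0.01, with Edem2 at 0.16 and Dnajb14 at 0.20. Channel and signal peptidase genes (29 tested) had a median of 0.004, with 16 above 0 and 13 below. They included Ssr2 at -0.13 and Ssr4 at 0.20, subunits of the same complex as Ssr1. Sensor genes (18 tested) had a median of 0.07, where that of all genes tested was -0.01.

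The larger differences on the wider lists were in genes with other known roles too. Vldlr, a lipoprotein receptor that ATF4 can raise, read 5.49, 5.55, 5.93 and 5.83 in Atgl KO/cTg pools, against 6.35, 6.46, 6.05 and 6.57 in wt/cTg pools. Every Atgl KO/cTg pool lay below every wt/cTg pool, with a difference of -0.65 (SE 0.15, limma adjusted p = 0.253). Of the 141 tested genes on the wider lists, 4 were higher and 2 lower without overlap, Edem2 among the higher. Over all genes tested, 4.35% did not overlap. Slc7a11, the cystine transporter, which ATF4 and NRF2 both raise, read 7.09, 6.98, 6.66 and 6.83 in Atgl KO/cTg pools, against 6.91, 5.63, 6.30 and 5.49 in wt/cTg pools. Its groups overlapped through wt/cTg replicate 1, with a difference of 0.81 (SE 0.27, limma adjusted p = 0.462). Of the 37 tested genes on the ATF4 list 25 lay above 0 and 12 below (median 0.04). Over all 13112 genes tested 6261 lay above 0 and 6851 below. The difference was smaller than the within-genotype SD for 28 of the 37 (75.7%) and for 74.7% of all genes tested. This list too was chosen with earlier results of these data known, so its count is no test.

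Ern2, the IRE1 form of mucus-making cells, read 5.69, 6.38, 5.80 and 5.66 in Atgl KO/cTg pools, against 5.54, 5.45, 5.10 and 5.28 in wt/cTg pools. The wt/cTg values lay close to the level filter of 5.18, with replicate 3 below it. The Ern2 groups did not overlap, as was so for 4.35% of all genes tested. The difference was 0.54 (SE 0.17, limma adjusted p = 0.446), beside 0.05 for Ern1. Without Atgl KO/cTg replicate 2, the highest pool, the Ern2 difference was 0.38, and without Atgl KO/cTg replicate 4 it was 0.62. Ern2 is also on the goblet marker list, whose mean was highest in Atgl KO/cTg replicate 2, the pool with the highest Ern2. The part of goblet cells in the Ern2 difference was not tested. Creb3l4, a transcription factor related to ATF6, was at 0.35 (limma adjusted p = 0.642).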

How the data were processed

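RNA of 8 pools of club cells was amplified from 50 ng with NuGEN Ovation Pico WTA and labelled with biotin, per the labels' protocols. The deposited table gives a log2 signal for each probe set on each array, and no further scaling was applied. The signals ran from 1.85 to 13.54. The authors' software, background correction and normalization were not given in the sources used here. The number of arrays limits the precision.

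Of 41345 probe sets, 23521 had 1 gene symbol in the platform annotation, 1814 had several and 16010 none. Genotypes, from the genotype label, were set against each other in R 4.3.3 by limma 3.58.1 (variance trend, two-sided, Benjamini-Hochberg over 13112 genes, threshold 0.05). Each difference is the Atgl KO/cTg mean minus the wt/cTg mean. Every member passed the level filter, so the exact permutation test planned for members below it was not used. Members and role groups were described by counts and medians without a set test. The text names all members, Pnpla2, marker genes past the threshold, and of each wider list the 2 genes with the smallest p. Of 159 wider entries 146 matched a gene. Members and lists were chosen with earlier results of these data known. The steps were tested on simulated data. Replicate numbers follow sample order and pair nothing. Figures used matplotlib 3.10.9.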

Additional observations from a re-analysis of the deposited data

Results flagged for a closer look

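Within groups of 4 pools, 64 groups of values (the members and Pnpla2 in each genotype) were examined for a single pool far from the other 3 by Dixon's test, which flags about 5% of groups by chance. It marked 3. Hsp90b1 was low in Atgl KO/cTg replicate 2, at 11.54 against 11.76 to 11.79 in the other Atgl KO/cTg pools. Dnajb9 was low in the same pool, at 9.41 against 9.82 to 9.87. Canx was high in wt/cTg replicate 1, at 10.95 against 10.76 to 10.79 in the other wt/cTg pools.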

How the results depend on the processing

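No member passed the limma threshold in any of the 19 other settings, where the smallest adjusted p of a member was 0.341. Of 588 member values refitted, 560 kept their direction and 28, in 12 members, changed sign, and 19 members kept theirs throughout. Pnpla2 passed in all settings. With no genes called among the members, the number of all genes called (13) still moved: it was 7 with no level filter and 7 with age added as a covariate, 1 without the variance trend or after quantile normalization, 23 with array weights, 3 with runs of mouse numbers as a block and 8 with the pools at either end of the first principal component (Atgl KO/cTg 2 and wt/cTg 4) left out. When each pool was left out it ran from 1 to 25. It was 1 without Atgl KO/cTg 1, wt/cTg 2 or wt/cTg 4, 2 without Atgl KO/cTg 3, Atgl KO/cTg 4 or wt/cTg 3, and 25 without wt/cTg 1.

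Members with an unadjusted limma p under 0.05 (2) numbered 5 after quantile normalization or with array weights, 1 with all probe sets of a gene averaged, runs of mouse numbers or the sex score, and 0 without the variance trend or without those end pools. With a pool left out they numbered 0 to 3: 0 without Atgl KO/cTg 2 or wt/cTg 4, 1 without Atgl KO/cTg 3 or wt/cTg 3, and 3 without any 1 of the other 4. With array weights and after quantile normalization they were Atf4, Ssr1, Sec61b, Derl3 and Creld2. With runs of mouse numbers it was Ssr1 (Atf4 at 0.106), with the sex score Derl3 (Atf4 at 0.0513), and without the variance trend Atf4 was at 0.094. With a pool left out, Atf4 was under 0.05 only without Atgl KO/cTg 4 or wt/cTg 2. The ATF4 group median (-0.12) ran from -0.19 to -0.06 with a pool left out, that of the sensors (0.04) from 0.01 to 0.10, of folding members (-0.05) from -0.06 to 0.03, of degradation genes (0.07) from 0.04 to 0.13 and of the channel genes (-0.23) from -0.29 to -0.13. Without the end pools degradation genes were at 0.02, sensors at -0.02 and channel genes at -0.13.

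Signs turned in 12 members. Without the end pools Hspa5 was at 0.04, Calr at -0.0011, Dnajb11 at -0.01, Sdf2l1 at -0.03, Ern1 at -0.02 and Eif2ak3 at -0.05. With median centring, which moved the median of all genes from -0.01 to -0.04, Calr was at -0.0025, Dnajb11 at -0.01 and Eif2ak3 at -0.01. With runs of mouse numbers Calr was at -0.04, Hyou1 at -0.02 and Eif2ak3 at -0.03, and with array weights Dnajc3 was at 0.03. When each pool was left out, Hspa5 ran from -0.13 to 0.01, Calr from -0.02 to 0.13, Pdia6 from -0.14 to 0.03, Dnajc3 from -0.06 to 0.03, Dnajb11 from -0.02 to 0.08, Herpud1 from -0.02 to 0.13, Derl1 from -0.10 to 0.03, Atf6 from -0.09 to 0.03 and Eif2ak3 from -0.05 to 0.11. The causes were not tested.

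The labels give no replicate numbers that pair pools. The block tried was the run of neighbouring mouse numbers in the titles, with the counts given above. No scan dates, detection calls or slides were used here, so signal over background was not tested.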
